A study of Homo sapiens with 4 samples.

Results

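The C/EBP family of transcription factors was read in 4 RNA sequencing libraries of cells labelled as oral squamous carcinoma lines, grown with the solvent DMSO or with the demethylating drug decitabine. The family was chosen on the response of CEBPD: its decitabine difference in an earlier analysis of these same counts set the choice, and the other members were selected by gene name, as CCAAT/enhancer-binding proteins. All 5 members (CEBPA, CEBPB, CEBPD, CEBPE and CEBPG) were in the table of 51103 genes, 4 of them had reads, and the same 4 passed the filter on low counts with 15427 genes in all. Polyadenylated RNA came from 2 cell lines, CAL27 and SCC15, both human and both kept in DMEM with serum and antibiotics. The 4 groups were CAL27 with DMSO, CAL27 with 10 µM 5-AZA-CdR (decitabine) for 48 h, SCC15 with DMSO, and SCC15 with the same dose for the same time. Each group was 1 library from 1 culture, so cultures were not replicated within a group, and p-values come from a model in which each line is the replicate of the treatment and each treatment the replicate of the line difference. Library totals ranged from 14524461 to 17583706 reads.

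C/EBP proteins bind DNA as dimers through a basic region and a leucine zipper, and members can pair with each other. CEBPA drives the differentiation of liver, fat and myeloid cells and halts the cell cycle, CEBPE acts late in granulocyte formation, and CEBPB and CEBPD are switched on by inflammatory signals and drive acute-phase genes. CEBPG has no activation domain of its own and works mainly as a partner of other leucine zipper proteins. In squamous epithelia, CEBPA and CEBPB are known for their part in the differentiation of keratinocytes. CEBPB is translated into activating and inhibitory proteins from one mRNA, which read counts per gene do not separate.

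Squamous markers named by the labels' cell type were largely absent from the SCC15 libraries. KRT5, the basal keratin of squamous cells, had 8054 and 8359 reads in the DMSO and decitabine libraries of CAL27, and 0 and 1 in the libraries labelled SCC15. The summed level of the 16 squamous markers was 4680 and 4210 CPM (reads scaled to library size) in CAL27 and 1540 and 2450 in SCC15, where the simple keratins KRT8 and KRT18 made up most of it. Of the 15 markers tested, 13 were called higher in CAL27, as were 22.7% of all genes tested. Summed neuroendocrine markers stood at 89.2 and 165 CPM in CAL27 and at 780 and 1080 in SCC15, and fibroblast and mesenchyme markers at 152 and 224 against 2920 and 2040. Single genes weigh heavily in these sums: ENO2 held 81.0 and 152 CPM in CAL27, and VIM 2515 and 1536 in SCC15. Of 7 neuroendocrine markers tested, 5 were called higher in SCC15 and 1 in CAL27. Some markers passed the filter on low counts through 1 line alone, as SCG3 did through SCC15 and KRT6A through CAL27. That filter thus sets in part the counts of line calls for squamous, neuroendocrine and fibroblast markers. Of 8 fibroblast markers tested, 4 were called higher in SCC15 and 2 in CAL27, beside 21.6% and 22.7% of all genes tested. SCC15 is therefore used here as a label. The drug contrast called 0 squamous, leukocyte, neuroendocrine or hepatocyte markers and 1 of 8 tested fibroblast markers. Of all genes tested it called 0.544% higher and 0.0778% lower. The fibroblast marker called, COL1A1, was higher (adjusted p = 0.00435 by edgeR's quasi-likelihood test, and 0.231 with limma on log2(FPKM + 1)). Summed hepatocyte markers were 52.5 and 76.0 CPM in CAL27 and 0 and 2.62 in SCC15, nearly all of it SERPINA1. Leukocyte markers, whose cells use CEBPA, CEBPD and CEBPE, summed to between 1.75 and 8.16 CPM, and the pan-leukocyte gene PTPRC had 0 reads in all 4 libraries. In bulk RNA, fewer cells that make a transcript and less of it per cell cannot be told apart.

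RefSeq promoter windows were matched for 4 of the 5 members. None was matched for CEBPD, so its promoter was not examined. For the other members, the 250 bases before each start were compared with 35116 windows of that length on GRCh38.p14. These windows are shown because DNA methylation, which the drug lowers, falls mainly on CpG, the C of a C-G step. Methylation was not measured, and the number of CpGs does not show whether a window was methylated. CEBPA held 41 CpGs before its start, a number that 1.73% of all windows reach, against a median of 11. CEBPB held 25 before its upstream start and 38 before its downstream start, and CEBPG 32 and 35 before its 2 starts. CEBPE, which gave no reads, held 2, and 85.3% of windows held at least as many. The stretches of the CEBPA window (chr19:33302565-33302784, minus strand, 37 CpGs in 220 bases) and of the upstream CEBPB window (chr20:50190333-50190582, plus strand, 25 CpGs) that overlap no annotated exon read as follows, 5′ to 3′, with each CpG in capitals.
CEBPA: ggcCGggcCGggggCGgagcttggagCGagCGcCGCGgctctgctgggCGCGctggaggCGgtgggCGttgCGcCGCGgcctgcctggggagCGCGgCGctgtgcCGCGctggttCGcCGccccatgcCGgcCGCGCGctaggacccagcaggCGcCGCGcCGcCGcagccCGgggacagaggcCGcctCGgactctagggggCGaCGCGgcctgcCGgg
CEBPB: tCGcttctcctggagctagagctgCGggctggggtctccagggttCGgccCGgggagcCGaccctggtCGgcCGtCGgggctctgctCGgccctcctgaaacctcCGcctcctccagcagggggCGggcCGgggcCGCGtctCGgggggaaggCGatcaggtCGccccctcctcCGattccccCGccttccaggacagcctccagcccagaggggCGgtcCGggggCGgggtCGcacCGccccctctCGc

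Of 4 motifs searched on both strands of the 250-base windows, the palindromic C/EBP core TTGCGCAA was in none of the windows of these members, CEBPD not among them, and in 0.131% of all windows. The TATA box letters TATAAA were before the CEBPA start and the downstream CEBPB start, and in 10.7% of all windows. CCAAT, the letters the family is named for, was before the upstream CEBPG start and the downstream CEBPB start, and in 32.0% of all windows. The GC box GGGCGG was in the CEBPA window, both CEBPB windows and the downstream CEBPG window, and in 42.6% of all. These matches describe letters alone.

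Per transcript length, CEBPB was the most abundant member in all 4 libraries. Its level in the authors' FPKM (reads scaled to transcript length and library size) was 49.8 in CAL27 with DMSO, 87.1 in CAL27 with decitabine, 37.3 in SCC15 with DMSO and 50.8 in SCC15 with decitabine. It exceeded the next member by 2.66-fold (95% counting interval 2.46 to 2.87), 5.74-fold (5.33 to 6.18), 2.99-fold (2.73 to 3.28) and 3.9-fold (3.53 to 4.32) in that order. CEBPG was the next member in 3 libraries, with FPKM levels of 18.7, 15.2 and 12.5, and stood at 8.19 in SCC15 with decitabine. There CEBPD had passed it, at 1.59-fold the CEBPG level (1.41 to 1.79), after standing 3.22-fold below it with DMSO (2.67 to 3.92). CEBPA was the lowest member with reads in every library, at 0.785, 1.81, 0.0513 and 0.367 FPKM. These intervals, like all counting intervals here, are exact binomial and cover counting error alone.

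**Figure D1:**
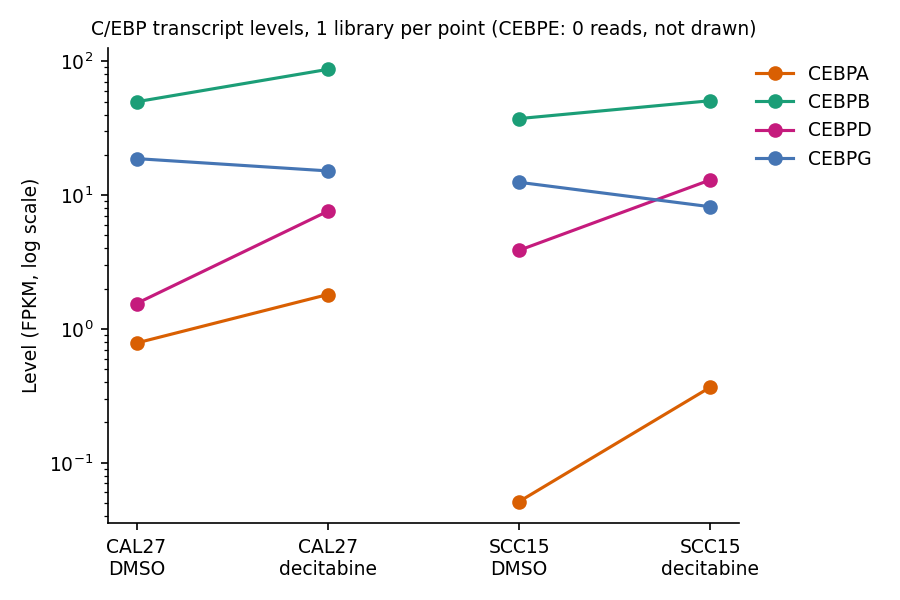
Levels of the 4 C/EBP genes with reads, in the authors' FPKM on a log axis, with 1 point per library and a line joining the DMSO and decitabine libraries of a cell line. CEBPB is on top throughout, and the CEBPD line crosses the CEBPG line in SCC15, from 3.87 to 13.0 FPKM.

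CEBPB held the largest part of the family in every library, CEBPG a smaller part with decitabine than with DMSO in both lines, and CEBPD a larger one. CEBPB made up 70.3% and 78.0% of the summed FPKM of the family in CAL27 with DMSO and decitabine, and 69.5% and 70.2% in SCC15. CEBPG held 26.4% with DMSO and 13.6% with decitabine in CAL27, and 23.2% and 11.3% in SCC15. CEBPD held 2.18% and 6.79%, then 7.2% and 18.0%. The level ratio of CEBPB to CEBPG within a library does not depend on how libraries are scaled. On the log2 scale that ratio was higher with decitabine by 1.11 in CAL27 and 1.05 in SCC15, or by 0.53 in the shared fit with the trend by GC content removed. No test was made of these shares and ratios.

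**Figure D2:**
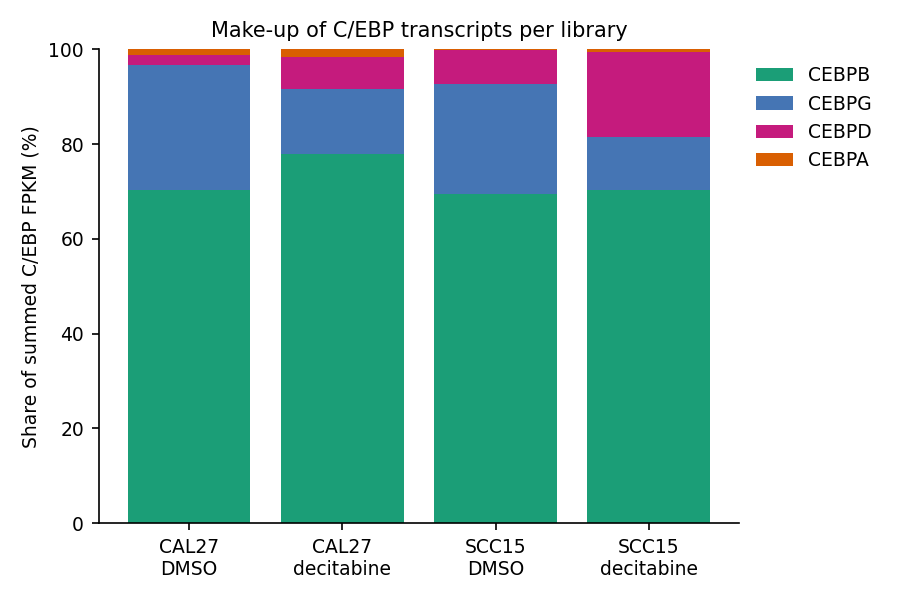
Share of each member in the summed FPKM of the C/EBP genes, as stacked bars for 1 library each. The CEBPG part is smaller and the CEBPD part larger in the decitabine library of both lines, and CEBPE has no part because it had 0 reads.

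CEBPD (ENSG00000221869, GRCh38 chromosome 8, 47736909 to 47739086, minus strand) had 49 reads in CAL27 with DMSO and 243 with decitabine, and 125 and 498 in SCC15. In CPM these were 3.37, 16.5, 8.43 and 28.3, so both decitabine libraries lay above both DMSO libraries. The log2 ratio of decitabine over DMSO was 2.11 in CAL27 (95% counting interval 1.71 to 2.63) and 1.72 in SCC15 (1.45 to 2.03), or 4.32-fold and 3.29-fold. The counting intervals of the lines overlap, and with 1 library per group the difference between them could not be tested. The shared log2 fold was 1.93 ± 0.38 (SE of the fit). These values chose the family and are given as a description, without a test. Among the 15427 genes tested, the CEBPD ratio ranked 66 from the top in CAL27 and 599 in SCC15.

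CEBPB (ENSG00000172216, chromosome 20, 50190734 to 50192689, plus strand) had 1416 reads with DMSO and 2506 with decitabine for CAL27, against 1083 and 1746 for SCC15. In CPM the levels were 97.5 with DMSO and 170.3 with decitabine in CAL27, and 73.0 and 99.3 in SCC15. Both decitabine libraries were above both DMSO libraries, though SCC15 with decitabine lay just above CAL27 with DMSO. The log2 ratios were 0.67 (0.57 to 0.76) in CAL27 and 0.43 (0.32 to 0.54) in SCC15, intervals that do not include 0. The shared log2 fold was 0.55 ± 0.28 and did not pass edgeR's quasi-likelihood test (adjusted p = 0.512). Its shared fold after removal of the GC trend was 0.14 ± 0.24 on the log2 scale.

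CEBPG (ENSG00000153879, chromosome 19, 33373330 to 33382686, plus strand) had 1201 reads with DMSO and 985 with decitabine for CAL27, against 816 and 635 for SCC15. Levels in CPM were 82.7 and 66.9 in CAL27 and 55.0 and 36.1 in SCC15, lower with the drug in each line but overlapping between treatments. The log2 ratios were -0.44 (-0.57 to -0.32) in CAL27 and -0.62 (-0.78 to -0.47) in SCC15. CEBPG was the only member with ratios below 0, and the shared log2 fold of -0.53 ± 0.28 did not pass (adjusted p = 0.524).

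CEBPA (ENSG00000245848, chromosome 19, 33299934 to 33302564, minus strand) had 30 reads with DMSO and 70 with decitabine for CAL27, against 2 and 17 for SCC15. In CPM these were 2.07 and 4.76 in CAL27 and 0.135 and 0.967 in SCC15, so the treatments overlapped across lines. The log2 ratio was 1.02 in CAL27 (0.43 to 1.73) and 2.07 in SCC15, where 2 reads with DMSO left a counting interval of 0.75 to 5.98. Its shared log2 fold of 1.59 ± 0.74 did not pass (adjusted p = 0.451). CEBPE (ENSG00000092067, chromosome 14, 23117304 to 23119616, minus strand) had 0 reads in all 4 libraries, which at a floor of 3 reads allows up to 0.207 CPM in the shallowest library and 0.171 CPM in the deepest.

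**Figure D3:**
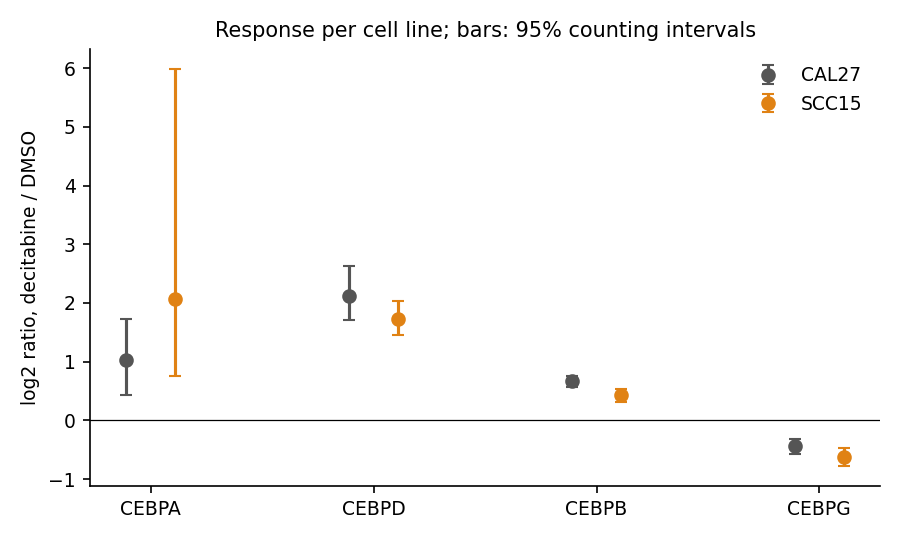
Log2 ratio of decitabine over DMSO for each member in CAL27 and SCC15, with 95% counting intervals as bars. CEBPA, CEBPD and CEBPB lie above 0 in both lines and CEBPG below 0 in both, and the CEBPA bar in SCC15 is wide because 2 reads were counted with DMSO.

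Of the 3 members whose own values did not choose the family, 0 passed the decitabine test in either direction, at unadjusted p-values of 0.0385 for CEBPA, 0.0611 for CEBPB and 0.0659 for CEBPG. Over all genes tested, 0.544% were called higher and 0.0778% lower (84 and 12 genes). Within a line, where there is no test, 5.57% of genes with at least 1 CPM in either library were at least 2-fold higher in CAL27 and 13.1% in SCC15. By that rule CEBPA and CEBPD were past 2-fold in CAL27, and CEBPD was in SCC15, where CEBPA stayed below 1 CPM. DESeq2 gave no adjusted p for CEBPA, and over the other alternatives tried the adjusted p of these 3 members ran from 0.143 to 1.

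The responses stood beside a trend with transcript GC content that was present across all genes. Spearman's rho of the log2 ratio with the GC content of the longest transcript was 0.248 in CAL27 and 0.496 in SCC15, a description across 15427 genes that share their libraries. CEBPD, at 70.0% GC, CEBPB at 66.2% and CEBPA at 65.9% all lay in the highest decile of GC, with a decile median of 0.24 for CAL27 and 0.58 for SCC15 on the log2 scale. CEBPG, at 43.9%, lay in the fourth decile, with medians of -0.07 and -0.11. Within their own decile, the CEBPD ratio was at percentile 99.0 in CAL27 and 92.0 in SCC15, and the CEBPA ratio at 89.7 and 95.9. That decile spans 61.4% to 75.3% GC, and CEBPD was at GC percentile 99.7 of all genes tested. Most genes it is compared with therefore have a lower GC content. The CEBPB ratio was at percentile 78.4 in CAL27 and 38.9 in SCC15, below the median of its decile there. With the trend removed, the shared log2 fold of CEBPD was 1.49 ± 0.34, that of CEBPA 1.23 ± 0.73 and that of CEBPG -0.39 ± 0.23. The part of GC content in these ratios was not tested beyond this correction.

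**Figure D4:**
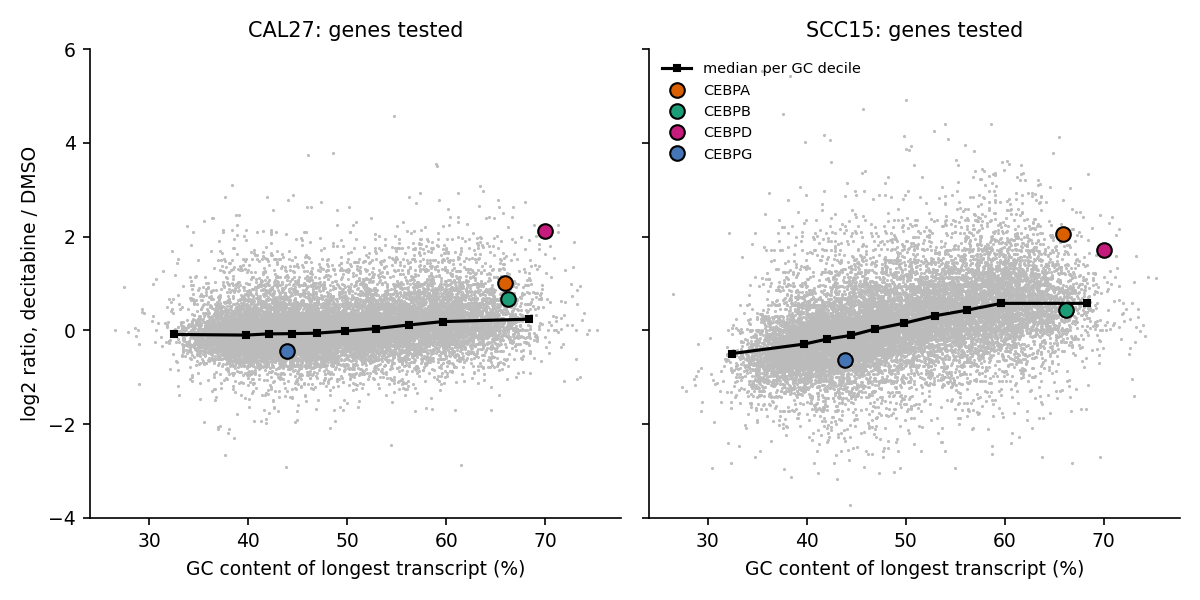
Log2 ratio of decitabine over DMSO against the GC content of the longest transcript for every gene tested (grey), with medians per GC decile in black and the 4 members in colour, for each line. CEBPD lies far above the black line in both panels and CEBPB below it in SCC15; 2 genes lie outside the SCC15 axis.

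Between the lines, CEBPA was higher in CAL27 and CEBPD higher in SCC15. CEBPA had a log2 difference of CAL27 over SCC15 of 2.65 ± 0.76 by edgeR's quasi-likelihood test (adjusted p = 0.00406), at 3.01 between the DMSO libraries and 1.96 between the decitabine libraries. Both CAL27 libraries lay above both SCC15 libraries, although the SCC15 levels rest on 2 and 17 reads. CEBPD had a difference of -1.18 ± 0.37 (adjusted p = 0.00926), at -1.37 with DMSO and -0.98 with decitabine. Because decitabine and DMSO levels lie far apart, CAL27 with decitabine exceeded SCC15 with DMSO, and CEBPD was higher in SCC15 only within a treatment. In these directions 22.7% of all genes were called higher in CAL27 and 21.6% in SCC15, so 2 calls among 4 members are close to the background.

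CEBPB and CEBPG were not called between lines. The CEBPB difference was 0.45 ± 0.28 (adjusted p = 0.203), and that of CEBPG was 0.59 ± 0.28 (adjusted p = 0.0861), with both CAL27 libraries above both SCC15 libraries. DESeq2 ended the call of CEBPA (adjusted p = 0.0731, in a range from 0.000156) and that of CEBPD (0.0613). For CEBPD the difference with the GC trend removed was -0.73 (adjusted p = 0.0711), and without treatment in the model the adjusted p was 0.263, the ends of a range from 0.00782. CEBPB passed with the GC trend removed, at 0.70 (adjusted p = 0.0173, in a range up to 0.365).

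By the main test no gene beside a member was called with the drug. SPIDR, a repair gene that ends 603 bases from the 3′ end of CEBPD on the opposite strand, had a log2 ratio of -0.10 for CAL27 and 0.19 for SCC15, and PRKDC, a DNA repair kinase gene on the other side, had -0.54 and 0.60. CEBPB-AS1, which overlaps CEBPB on the opposite strand, had between 22 and 30 reads in each library, against at least 1083 for CEBPB. No source used here gives the strand setting of the counting, so how reads in the stretch shared by the pair were counted is not known. Few reads for CEBPB-AS1 do not show that the CEBPB count was unaffected. CEBPA-DT, transcribed away from the CEBPA promoter, had 3 and 7 reads for CAL27 and 0 and 3 for SCC15, and the 2 annotated antisense genes over CEBPA had 0. Beside CEBPE, the amino acid transporter gene SLC7A8 had 100 and 194 reads for CAL27 and 3 and 108 for SCC15 (log2 ratio there 4.25, counting interval 3.32 to 7.21), and its shared log2 fold of 2.14 ± 0.58 did not pass (adjusted p = 0.0862). SLC7A8 did pass with total-count scaling (0.00329) and without a filter on low counts (0.0039), in a range up to 1.

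Acute-phase and inflammatory genes known as C/EBP targets were the list with the most calls. The lists were chosen with earlier results of these data known, so these counts are a description. Of 31 genes on the list 21 were tested, 6 were called higher and 0 lower, beside 0.544% and 0.0778% of all genes tested. Of the 21, 15 had ratios above 0 in both lines and 1 had ratios below 0 in both, beside 4911 and 4276 of all 15427 genes tested. The lowest shared log2 fold on the list was -0.51. Median log2 ratios for CAL27 and SCC15 were 0.75 and 2.00, against 0.00 and 0.05 over all genes tested. These medians describe the tested genes alone, some of which passed the filter through 1 line. CCL20, a chemokine for lymphocytes, had ratios of 2.34 and 5.53 (adjusted p = 0.000738), the latter from 1 and 154 reads (counting interval 4.50 to 12.32). CCL2, a chemokine for monocytes, had 1.03 and 2.11 (adjusted p = 0.0139). CXCL1 and CXCL8, which attract neutrophils, had 0.75 and 2.00 (adjusted p = 0.0205) and 0.94 and 1.57 (adjusted p = 0.0284). The complement gene C3 had 7841 reads with DMSO and 13362 with decitabine for CAL27, and 55 and 489 for SCC15 (adjusted p = 0.0205). IL1B, which also stands among the signals that induce CEBPB and CEBPD, had 0.82 for CAL27 and 4.72 for SCC15 (adjusted p = 0.04), the latter from 1 and 87 reads (counting interval 3.67 to 11.50). Among acute-phase genes known from liver, HP, CRP, ORM2 and SERPINA3 had 0 reads in all libraries. SAA1 had 441 and 944 reads for CAL27 and 0 and 8 for SCC15, SAA2 had 55 and 93, then 0 in both, and SERPINA1 had 759 and 1115, then 0 and 44; none of these 3 passed (adjusted p = 0.303, 0.861 and 0.268), though SERPINA1 did with total-count scaling (0.0226) and SAA1 with limma on log2(FPKM + 0.1) (0.0331). Summed leukocyte markers went from 5.51 to 8.16 CPM for CAL27 and from 1.75 to 6.43 for SCC15. These sums include CD14, which is on both lists and went from 1.1 to 3.1 CPM for CAL27 and from 0.27 to 4.1 for SCC15. The part of such cells was not tested. CCL20 kept its call in every model with a cell line term. C3 and IL1B lost theirs with the GC trend removed (adjusted p = 0.0641 and 0.0537), and with CXCL1 by DESeq2 (0.149, 0.276 and 0.149). With limma on log2(FPKM + 1), CXCL8 (0.153), CCL2 (0.152), CXCL1 (0.181), C3 (0.238) and IL1B (0.23) lost their calls, and IL1B also did with DESeq2's size factors (0.0513). Without the cell line term all 6 lost their calls, at an adjusted p of 1; the lowest value among these 5 genes was 2.28e-05.

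**Figure D5:**
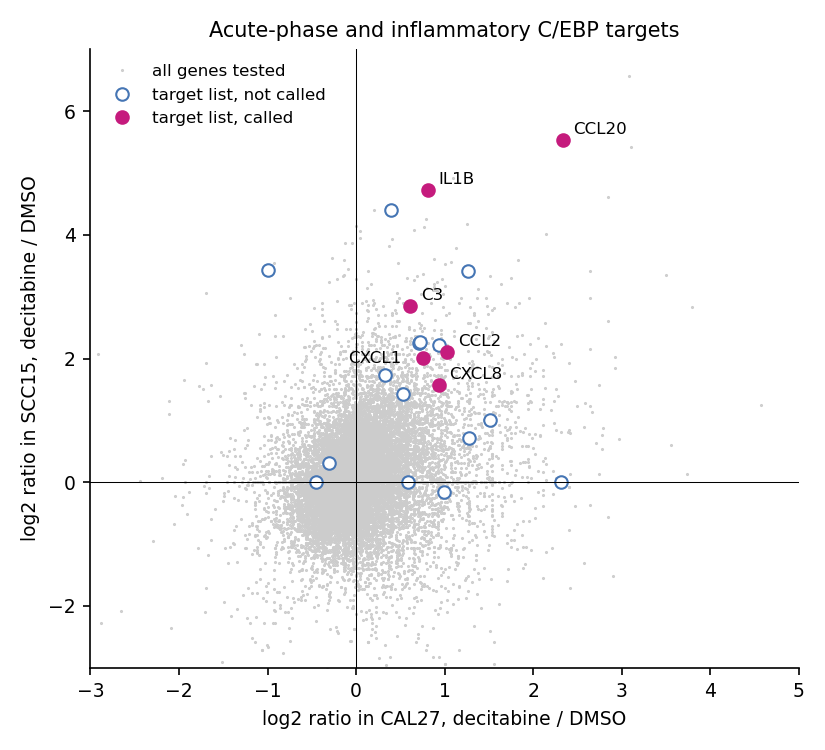
Log2 ratio of decitabine over DMSO in SCC15 (vertical) against CAL27 (horizontal) for the 21 tested acute-phase and inflammatory C/EBP targets, filled where called by the shared test and open where not, over all genes tested in grey. The 6 filled points lie above 0 on both axes; 7 grey genes lie outside the axes.

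Upstream signalling to CEBPB and CEBPD gave 1 call among 27 tested genes, IL1B, and medians of 0.12 and 0.53, and the call ended with the GC trend removed. Over all genes tested, 0.544% were called higher and 0.0778% lower. Dimer partners and related leucine zipper factors gave 0 calls among 13, with medians of 0.11 and 0.19. ATF4, a stress factor that pairs with C/EBP proteins, had ratios of 0.11 and 0.19, JUN had -0.20 and -0.23, and ATF2 had 0.10 and -0.57. Genes that degrade C/EBP proteins or control their translation gave 0 calls among 10, with medians of -0.15 and -0.12. TRIB2, a scaffold for the breakdown of C/EBPα, had 276 and 381 reads for CAL27 and 3053 and 6689 for SCC15, with ratios of 0.31 and 0.87. CALR, the chaperone calreticulin, had 0.47 and 0.85, and CELF1, an RNA-binding protein, had -0.06 and 0.06.

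Lists for the tissues in which C/EBP proteins are best known held few genes that passed the filter on low counts. Of 17 epidermal differentiation genes 6 were tested and 0 were called; KRT10, a keratin of differentiating epidermis, had ratios of 0.82 and 0.19, FLG, the gene of filaggrin, had 0.34 and 0.81, and PRDM1 had -0.03 and 1.83. Of 14 granulocyte genes 2 were tested and 0 were called; ITGAM had 58 and 64 reads for CAL27 and 0 and 5 for SCC15, LYZ had at most 27 and MPO at most 6. Of 14 fat and liver genes 4 were tested, 0 were called with the drug, and all 4 were higher in SCC15, as were 21.6% of all genes tested. A gene could pass the filter through the libraries of 1 line, so the count of line calls is in part set by the filter. FABP4, a fatty acid carrier of adipocytes, had 2 and 10 reads for CAL27 and 5083 and 9586 for SCC15. SCD, a fatty acid desaturase, had ratios of 1.41 and 0.45 (adjusted p = 0.196, and 0.0284 with total-count scaling, in a range up to 1), and PPARG, the nuclear receptor of fat cell formation, had -1.07 and 0.18.

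Growth arrest and repair genes linked to CEBPD gave 1 call among 16, beside 0.544% of all genes tested that were called higher. The call was CDKN1A, the gene of the cell cycle inhibitor p21. It had 570 and 1061 reads for CAL27 and 109 and 724 for SCC15 (adjusted p = 0.0178, and 0.236 by DESeq2 in a range from 0.000138 to 1). Medians over the list were -0.15 and 0.13. Glucocorticoid and cAMP responsive genes (11 of 12 found) gave 0 calls among 10, with medians of 0.02 and 0.15. SGK1, a kinase induced by steroid hormones, had ratios of -0.79 and -0.12, FKBP5, a steroid receptor co-chaperone, had -0.57 and -0.34, and PCK2 had -0.11 and 1.15.

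The genes whose pattern over the 4 libraries was most like that of CEBPD were CGNL1, DTX1, SEMA3F, FES and YBX2. Likeness was the root mean square difference of centred log2 CPM over the 4 libraries among 14477 genes, at 0.154 for CGNL1, 0.194 for DTX1, 0.195 for SEMA3F, 0.235 for FES and 0.240 for YBX2. CGNL1 had 4 and 29 reads for CAL27 and 15 and 48 for SCC15, and SEMA3F had 13 and 68, then 46 and 129. All 5 had at most 129 reads in any library. They were picked by likeness to the values that chose the family, so no decitabine test is given for them.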

How the data were processed

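RNA of 4 libraries was analysed. Read counts per gene and FPKM were deposited by the authors in 1 table; HISAT2, HTSeq 0.13.5 and GRCh38 are named in the submitters' processing notes, while no source used here gives the annotation release or the strand setting. All 51103 identifiers were found in GENCODE 29, which gave coordinates and transcript GC. Tests used edgeR 4.0.16 in R 4.3.3 (quasi-likelihood, TMM, terms for line and treatment, minimum count 10 and total 15, Benjamini-Hochberg over 15427 genes, threshold 0.05). Pairing by line comes from the labels. The model leaves 1 residual degree of freedom, and genes share information on the spread (36.1 prior degrees of freedom), so an SE says little of disagreement between lines. P-values speak of these 2 lines and 1 culture of each. Within-line log2 ratios used CPM scaled by TMM, adding a prior count of 2. The deposited FPKM served for levels and, with limma 3.58.1 on log2(FPKM + 1) or log2(FPKM + 0.1), for alternatives, as did DESeq2 1.42.0. The GC trend was removed as an offset from a loess curve per library (span 0.3). Scripts were tested on simulated data. The members and the 14 lists were chosen with earlier results of these data known. Genes named were all members, the called genes of a list or else its 3 with the most reads, neighbouring genes, and those most like a member in pattern; the markers, the other acute-phase genes, MPO and CEBPZOS were named after their values were seen. Libraries without molecular identifiers count PCR copies, so intervals and floors cover counting error only.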

Additional observations from a re-analysis of the deposited data

Results flagged for a closer look

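For 5 of the genes named in the text the lines moved in opposite directions, with counting intervals on opposite sides of 0; the difference between the lines was not tested. PRKDC, next to CEBPD, had a log2 ratio of -0.54 for CAL27 and 0.60 for SCC15. PPARG had -1.07 in CAL27 and 0.18 in SCC15. C14orf119, next to CEBPE, had 0.35 in CAL27 and -0.40 in SCC15. The simple keratin genes KRT8 and KRT18 had -0.42 and -0.77 in CAL27, against 0.85 and 0.24 in SCC15.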

How the results depend on the processing

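The signs of all member folds, with the drug and between lines, held under the 9 alternatives to the model and with one line or treatment left out. Genes called higher numbered 84, and 313 with total-count scaling, 155 without a filter, 27 by DESeq2, 1 by limma on log2(FPKM + 1), 46 with the GC trend removed and 0 without the cell line (no replicate block, 20 at an unadjusted p of 0.05). Genes called lower numbered 12, and 21, 21, 1, 7 and 0 (3 unadjusted) under those settings other than DESeq2. Total-count scaling moved the median CAL27 ratio by 0.14. The shared log2 fold of CEBPD was 1.49 with the GC trend removed. Between lines (CAL27 over SCC15), CEBPA was 2.89 and CEBPD -1.17 by DESeq2, and CEBPD -0.73 with the GC trend removed and -1.07 without treatment in the model (each ending its call). CEBPB was called at 0.60 with log2(FPKM + 0.1) and 0.70 with the GC trend removed. CEBPG was called at 0.74 with total-count scaling, 0.68 with log2(FPKM + 1), 0.73 with log2(FPKM + 0.1) and 0.56 with the GC trend removed. The causes were not tested.

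Some uncalled genes changed sign. With the GC trend removed these were ATF4 (-0.082), ATF2 (0.093), CELF1 (0.051), LRP3 (-0.34), PEPD (-0.082), KRT8 (-0.006) and CEBPZOS (0.018). CELF1 was also above 0 with total-count scaling (0.076), DESeq2 size factors (0.001), DESeq2 (0.001), log2(FPKM + 1) (0.071), log2(FPKM + 0.1) (0.075) and no block (0.005). PPARG turned without the block (0.12). CEBPB-AS1, C14orf119 and KRT5 turned with total-count scaling (0.062, 0.052 and 0.082), log2(FPKM + 1) (0.023, 0.047 and 0.027) and log2(FPKM + 0.1) (0.051, 0.053 and 0.107). At 2 reads, depth limits the CEBPA ratio in SCC15.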

Other observations

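CEBPZ, which shares the family's name and binds CCAAT boxes but is no leucine zipper protein, had 1037 and 776 reads for CAL27 and 2086 and 1404 for SCC15; CEBPZOS lies over it on the opposite strand. Its log2 ratios of -0.57 and -0.83 were below 0 in both lines, like those of CEBPG, and its shared log2 fold of -0.70 ± 0.28 did not pass edgeR's test (adjusted p = 0.344).

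The patterns most like that of CEBPG were those of PTAR1, PSMD12 and DTD2 (root mean square difference of centred log2 CPM over the 4 libraries 0.0153, 0.0214 and 0.0314). Those most like CEBPB were SMUG1, FAHD2CP and PSPN (0.0242, 0.0293 and 0.0359). These 6 genes were picked by their pattern, treatment difference included, so no decitabine test is given for them. Among the other neighbours, LRP3, beyond CEBPA, had 0 reads in both CAL27 libraries and 211 and 290 in SCC15. SMIM25, beyond CEBPB, had 15 and 43 reads in CAL27 and 0 in both SCC15 libraries.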
